A study of Caenorhabditis elegans with 6 samples.

Results

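The heterochronic genes set the order and timing of stage-specific cell fates in larvae of the nematode Caenorhabditis elegans. A set of 10 of them was examined here: lin-14, lin-28, lin-46, hbl-1, daf-12, lin-29, mab-10, lin-42, kin-20 and dre-1. Members were found by their gene symbol, and all 10 were present among the 46926 genes of the count table and passed the filter on low counts that left 17022 genes for testing. Poly(A)-selected RNA of whole wild-type (WT) worms labelled L4, the last larval stage, was sequenced. One group of 3 libraries came from untreated worms on plates seeded with Escherichia coli OP50, the usual laboratory food, and the other group of 3 came from worms exposed to FUDR at 50 µM. FUDR (fluorodeoxyuridine) is a nucleoside analogue that blocks the synthesis of thymidylate for DNA, and the comparison asks which transcripts differ at L4 between these plates. The labels give neither the start of exposure nor the cultures behind each library, and the p-values therefore refer to the spread among libraries, which may be technical.

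As background, early larval fates depend on LIN-14, LIN-28 and HBL-1, whose levels drop as microRNAs of the lin-4 and let-7 families accumulate. LIN-29, with its cofactor MAB-10, then drives the switch to adult epidermis, in which the seam cells stop dividing and fuse and an adult cuticle is made. The Period-like protein LIN-42 cycles with each molt, and the steroid receptor DAF-12 ties these steps to growth conditions. Whole-worm libraries count all tissues together, and fewer cells of a type cannot be told apart from less RNA per cell. Gene-level counts also cannot tell apart the annotated transcripts of a gene, which number between 1 for lin-46 and 10 for daf-12.

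In FUDR, lin-42 and mab-10 were lower and lin-46 was higher, while the other 7 members did not pass the test. The log2 fold change, FUDR over OP50 throughout, was −1.05 for lin-42, −0.78 for mab-10 and 0.64 for lin-46. Of the 10 members, 3 passed an edgeR adjusted p under 0.05 (2 fell and 1 rose), against 41.0% of all genes tested, with 3397 higher and 3582 lower. The members' share was thus not above that of the whole table. Without FUDR replicate 3, which stood apart as described next, 3 members fell (lin-42, mab-10 and lin-28) and 0 rose. Over the whole table that fit called 3709 genes lower and 3081 higher of 17194 tested. With all 6 libraries, the members' median log2 fold change was −0.21, against 0.05 over all genes tested. Ranges of CPM (counts scaled to library size, with TMM factors) were separate between groups for 5 of the 10 members, against 54.7% of all genes tested.

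Between 61312034 and 99234226 counts fell on genes in a library. Fold changes moved with transcript length across the table. Among protein-coding genes averaging 5 CPM or more, the median log2 fold change was 0.30 where the longest annotated transcript was at most 500 bases, and −0.50 where it was over 6000 bases. FUDR replicate 3 stood furthest from the OP50 mean, with a median of −0.95 for the longest class, against −0.48 in replicate 2 and −0.19 in replicate 1. RNA integrity of the libraries was not assessed here, and its part in this trend was not tested. Of the members, 8 have a transcript over 2000 bases. FUDR replicate 3 had the lowest CPM of the 6 libraries for 7 of the 10 members, against 28.0% of all genes tested. With a fit that removes each library's length trend (length-trend scaling, chosen after seeing the data), the same 3 members passed, against 41.0% of all genes, with 4101 higher and 2871 lower. The members' median was then 0.11, against 0.12 over all genes.

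**Figure D1:**
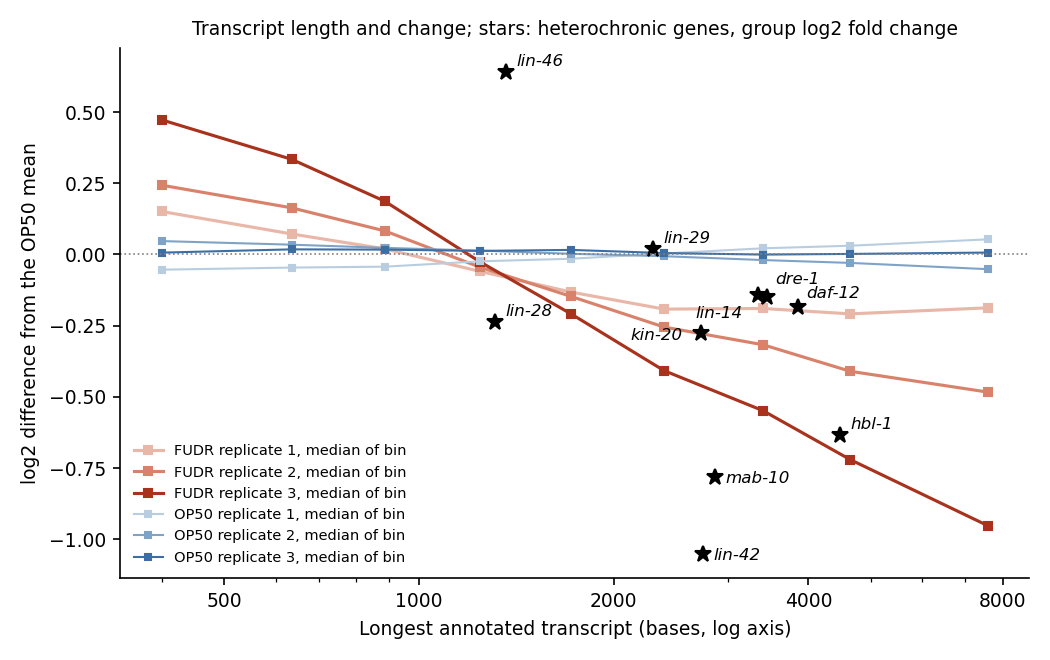
Lines give, for each library, the median log2 difference from the OP50 mean of genes grouped by their longest annotated transcript (horizontal log axis, bases), and stars give the log2 fold change of each heterochronic gene. The lines of the 3 FUDR libraries fall with length, furthest in replicate 3, where the longest class is at −0.95. Among the stars, lin-42, mab-10 and lin-28 lie below all lines, and lin-46 and, by little, lin-29 lie above them.

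Germline transcripts were lower in FUDR. The marker counts here stand against 3582 lower and 3397 higher of the 17022 genes tested. The summed level of 17 germline markers was between 7357 and 7664 CPM in OP50 and between 3198 and 4263 CPM in FUDR, and 16 of the 17 fell, among them the yolk receptor gene rme-2 (−1.28). The 14 seam and hypodermis markers summed to between 111 and 131 CPM in OP50 and between 132 and 166 CPM in FUDR, with 2 higher and 1 lower, and none of them was at 0 in all libraries. As to the stage label, the adult collagen gene col-19 was already between 2074 and 2376 CPM in OP50, while 9 early embryo markers summed to at most 1.82 CPM in any library. Of 6 vulva markers 1 fell and 0 rose, of 10 neuron markers 3 rose and 0 fell, of 8 muscle markers 1 rose and 0 fell, and of 10 intestine markers 3 rose and 2 fell. These counts moved with the setting: the vulva fall, of cdh-3, was lost with length-trend scaling, and 8 neuron markers rose with length-trend scaling, 7 with library size only and 1 with scaling on somatic markers. The last scaling uses the neuron, muscle, intestine and hypodermis lists themselves, which pulls their genes towards no change. Without FUDR replicate 1, 4 muscle markers fell, against 3834 of 17279 genes tested. Without FUDR replicate 2, 0 intestine markers rose, against 2327 of 17237 genes tested. Male markers were low but higher in FUDR, at between 1.18 and 1.61 CPM summed over 8 genes in OP50 and between 4.49 and 5.83 CPM in FUDR, with 2 of the 3 tested called. The part of the germline, of males, of transcript length and of molt phase in the members' values was not tested beyond the fits given here.

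The early-fate genes come first. The lin-14 gene (WBGene00003003, chromosome X, 11465560 to 11485871, WBcel235) encodes a nuclear protein that specifies first-stage fates and is the classic target of the lin-4 microRNA. Its levels were 40.6, 33.1 and 39.2 CPM in the OP50 libraries and 43.7, 34.0 and 24.9 CPM in the FUDR libraries. Both the highest and the lowest value were in FUDR, so the groups overlapped. The log2 fold change of −0.14 ± 0.186 (SE) was not called (edgeR adjusted p = 0.574), with a 95% interval from −0.57 to 0.29. Without FUDR replicate 3 it was 0.04, and with length-trend scaling 0.19, so no direction can be given.

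The lin-28 gene (WBGene00003014, chromosome I, 8407630 to 8410804) encodes an RNA-binding protein that maintains second-stage fates and blocks the maturation of let-7. It stood at 35.5, 34.6 and 33.5 CPM in OP50 and at 26.3, 30.3 and 31.2 CPM in FUDR. Every FUDR library was below every OP50 library, and FUDR replicate 1 was the lowest, unlike for most other members. The difference was small, at −0.24 ± 0.0901 (95% interval −0.44 to −0.03 before adjustment), and missed the threshold (edgeR adjusted p = 0.0623). It passed with RLE scaling (adjusted p = 0.0461), with DESeq2 (0.0431) and without FUDR replicate 3 (0.0248), and was −0.0068 with library size only.

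The lin-46 gene (WBGene00003031, chromosome V, 12968855 to 12970730) encodes a gephyrin-like protein that acts downstream of lin-28 and opposes HBL-1. It was the least abundant member in OP50, with 104, 68 and 95 counts there and 104, 151 and 196 counts in FUDR. These correspond to 1.09, 1.12 and 1.31 CPM in OP50 and to 1.65, 1.63 and 2.20 CPM in FUDR. All 3 FUDR libraries were above all 3 OP50 libraries. The rise was 1.56-fold, or 0.64 ± 0.204 on the log2 scale (95% interval 0.18 to 1.10, edgeR adjusted p = 0.0332). It remained called with length-trend scaling (0.74, adjusted p = 0.0182). The call was lost on leaving out any library but FUDR replicate 1, with adjusted p between 0.0527 and 0.106, and with scaling on somatic markers (0.114).

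The hbl-1 gene (WBGene00001824, chromosome X, 5822142 to 5827755) encodes a Hunchback-like zinc-finger factor that is repressed by let-7 family microRNAs. Its OP50 levels were 10.5, 6.81 and 8.86 CPM and its FUDR levels 7.21, 6.14 and 3.62 CPM. The groups overlapped, since FUDR replicate 1 was above OP50 replicate 2. A log2 fold change of −0.63 ± 0.256 was not called (95% interval −1.22 to −0.05 before adjustment, edgeR adjusted p = 0.0782). It passed with DESeq2 (adjusted p = 0.0274) and without FUDR replicate 1 (−0.85, adjusted p = 0.0334). With length-trend scaling hbl-1 was at −0.25 (adjusted p = 0.293). Its longest transcript is 4478 bases, and genes of 4000 to 6000 bases had a median of −0.42.

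The daf-12 gene (WBGene00000908, chromosome X, 10635908 to 10666875) encodes the nuclear receptor for dafachronic acids, steroid hormones that promote reproductive development over dauer arrest. It was measured at 40.2, 32.3 and 40.6 CPM in OP50 and at 39.7, 31.5 and 28.6 CPM in FUDR. The groups overlapped, with OP50 replicate 2 below FUDR replicate 1. The value of −0.18 ± 0.139 was not called (95% interval −0.50 to 0.13, edgeR adjusted p = 0.318), and it was 0.20 with length-trend scaling. Without FUDR replicate 1 it was −0.34 and passed (adjusted p = 0.0471).

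**Figure D2:**
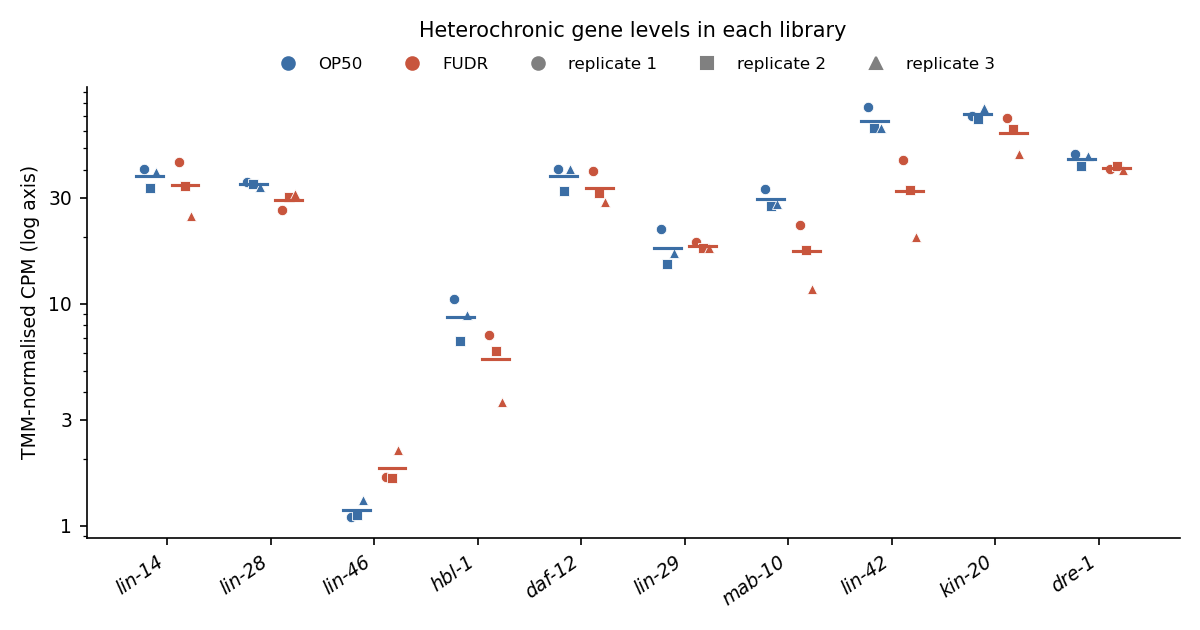
TMM-normalised CPM (vertical log axis) of the 10 heterochronic genes in each of the 6 libraries, with symbols for replicates and short lines for the mean of 3 libraries. The groups are apart for lin-42 and mab-10 (lower in FUDR), for lin-46 (higher) and, by less, for lin-28 and dre-1, and FUDR replicate 3 is often the lowest point.

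Next come the genes of the larval-to-adult switch. The lin-29 gene (WBGene00003015, chromosome II, 11917642 to 11935343) encodes the zinc-finger factor that drives terminal differentiation of the seam. It was at 21.8, 15.04 and 16.8 CPM in OP50 and at 18.9, 17.8 and 17.7 CPM in FUDR. The FUDR values lay within the OP50 range. The log2 fold change was 0.02 ± 0.137 (edgeR adjusted p = 0.93), and its 95% interval of −0.29 to 0.33 covers changes of that size in either direction.

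The mab-10 gene (WBGene00003107, chromosome II, 10528084 to 10534380) encodes a NAB-family cofactor of LIN-29. Its levels fell from 32.9, 27.4 and 28.2 CPM in OP50 to 22.5, 17.5 and 11.6 CPM in FUDR. The highest FUDR library was below the lowest OP50 library. The fall was 1.72-fold, or −0.78 ± 0.213 (95% interval −1.27 to −0.29, edgeR adjusted p = 0.0197). Genes of 2000 to 3000 bases had a median of −0.28 in this fit. With length-trend scaling mab-10 was at −0.48 (adjusted p = 0.038), against a median of 0.12 over all genes in that fit. Leaving out OP50 replicate 1 (adjusted p = 0.0523) or FUDR replicate 2 (0.0542) ended the call.

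The periodic timer gene lin-42 (WBGene00018572, chromosome II, 1233236 to 1252359) encodes the homologue of the circadian protein Period, and its transcript is known to rise and fall once per molt. A difference in molt phase between the groups was not tested and cannot be told apart from a change at the same phase. The lin-42 level stood at 76.6, 61.9 and 61.6 CPM in OP50 and at 44.4, 32.4 and 19.96 CPM in FUDR. The groups were apart, but the FUDR libraries differed among themselves by more than the OP50 libraries, with a coefficient of variation of 38% against 12.9%. The mean fell from 66.7 ± 8.61 to 32.3 ± 12.2 CPM (SD, n = 3 libraries each). This was the largest change among the 10 members with TMM scaling, a 2.07-fold fall or −1.05 ± 0.254 (95% interval −1.64 to −0.47, edgeR adjusted p = 0.0123). With library size only lin-46 (0.88) moved more than lin-42 (−0.84). Genes of 2000 to 3000 bases, which include lin-42 (2753 bases), had a median of −0.28 with TMM scaling. The fall of lin-42 was called in each of the 6 fits without 1 library, at between −1.36 and −0.80, and with length-trend scaling (−0.76, adjusted p = 0.0309). The call was lost without the filter on low counts (adjusted p = 0.075).

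The kin-20 gene (WBGene00002203, chromosome X, 15268602 to 15277764) encodes a casein kinase I of the Doubletime type, the kinase family that acts on Period in flies. It was at 69.8, 68.1 and 76.1 CPM in OP50 and at 68.7, 60.9 and 47.0 CPM in FUDR. FUDR replicate 1 lay within the OP50 range and FUDR replicate 3 well below it. The log2 fold change of −0.28 ± 0.131 was not called (95% interval −0.58 to 0.02, edgeR adjusted p = 0.122). It equalled the median of −0.28 for genes of 2000 to 3000 bases and was 0.03 with length-trend scaling. Without FUDR replicate 1 it was −0.41 and passed (adjusted p = 0.0222).

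The dre-1 gene (WBGene00001089, chromosome V, 6533614 to 6546500) encodes the F-box subunit of an SCF ubiquitin ligase that targets the transcription factor BLMP-1. It was the steadiest member in FUDR, at 40.3, 41.6 and 40.2 CPM with a coefficient of variation of 1.89%, against 47.4, 41.7 and 46.0 CPM in OP50. The groups did not overlap, but OP50 replicate 2 and FUDR replicate 2 differed by little. The value of −0.15 ± 0.0795 was not called (95% interval −0.33 to 0.03, edgeR adjusted p = 0.168), and length-trend scaling put it at 0.23 (adjusted p = 0.0825).

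**Figure D3:**
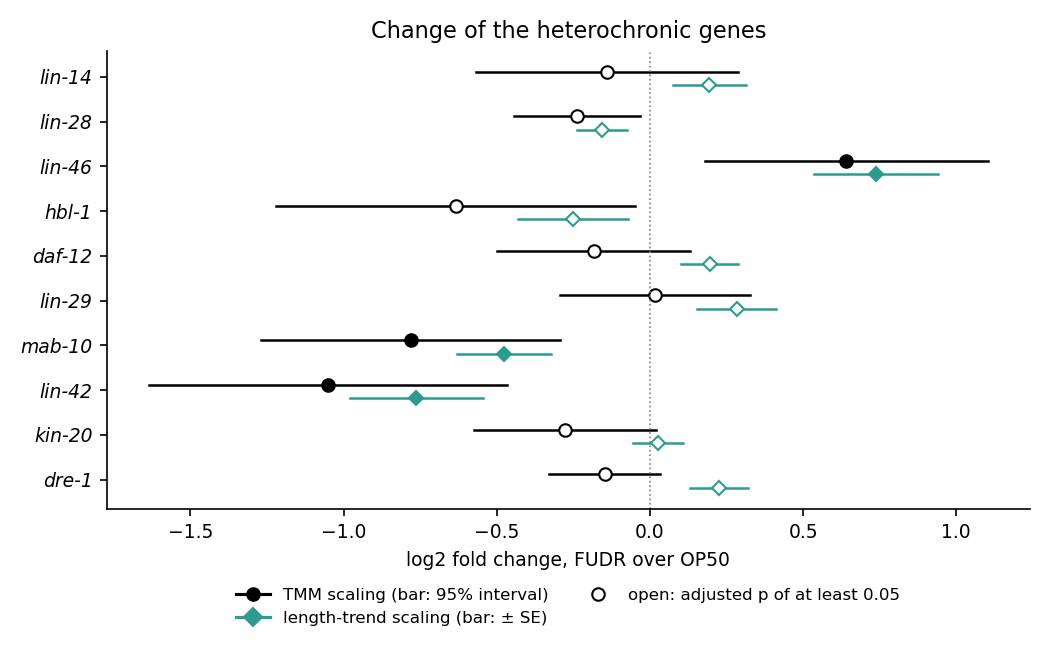
Log2 fold change, FUDR over OP50, of the 10 heterochronic genes with TMM scaling (circles, bars are 95% intervals) and with length-trend scaling (diamonds, bars are ± SE), filled where the adjusted p is under 0.05. Only lin-42, mab-10 and lin-46 are filled, in both fits, and length-trend scaling moves every point to the right.

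Ratios of one member to another within a library do not depend on scaling between libraries. Counts of lin-28 per count of lin-46 were 32.3, 30.6 and 25.5 in OP50 and 15.8, 18.5 and 14.2 in FUDR. The groups were apart, by 1.83-fold on average. Counts of mab-10 per count of lin-29, the cofactor against its partner, were 1.51, 1.82 and 1.68 in OP50 and 1.19, 0.981 and 0.656 in FUDR, a 1.82-fold fall. The ratio of lin-42 to kin-20, Period to its kinase, went from 1.10, 0.908 and 0.809 to 0.647, 0.531 and 0.425. That of hbl-1 to lin-29 went from 0.483, 0.453 and 0.526 to 0.382, 0.345 and 0.204. The ratio of daf-12 to hbl-1 was higher in FUDR, at 5.50, 5.12 and 7.88 against 3.82, 4.74 and 4.58. The groups did not overlap for any of these 5 pairs, and the two-sided exact permutation test gave p = 0.1, the smallest that 3 against 3 libraries allow, and 0.12 adjusted over the 6 pairs. This permutation test cannot go below 0.1 at 3 against 3 libraries, and no model-based test of the ratios was run. The pairs were chosen with earlier results of these data known, and some hold the called members lin-42, mab-10 or lin-46. How often other gene pairs lie apart was not measured, but CPM ranges of single genes did so for 54.7% of all genes tested. The sixth pair, lin-14 to lin-28, had overlapping groups (exact permutation p = 1.0), at 1.14, 0.957 and 1.17 in OP50 and 1.66, 1.12 and 0.798 in FUDR. These are count ratios, not per length, and they do not remove the length trend where the pair differ in length.

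Per kilobase of exon, lin-28 was the highest member in OP50 at 23.8 ± 0.679 CPM per kilobase (SD, n = 3). It was followed by kin-20 at 22.5 ± 1.33, which overlapped it, and then by lin-42 at 16.6 ± 2.15 and dre-1 at 13.04 ± 0.864. The lin-14 and mab-10 levels, both at 10.3 CPM per kilobase, could not be ordered, nor could daf-12 (8.49) and lin-29 (7.77). The range of lin-14 (from 9.04) also overlapped those of daf-12 (up to 9.14) and lin-29 (up to 9.46). At the bottom stood hbl-1 at 1.95 and lin-46 at 0.86 CPM per kilobase, apart from each other and from the rest. In FUDR lin-28 (20.1) and kin-20 (18.5) again led, and dre-1 (11.8) came next, with a range that overlapped that of lin-14. The lin-42 level dropped from place 3 to place 5, at 8.05 CPM per kilobase, where its range overlapped those of lin-14 (9.33) and lin-29 (7.88). The mab-10 level went from place 6 to place 8, at 5.99, where its range overlapped those of daf-12 (7.48) and lin-29. The lin-46 (1.34) and hbl-1 (1.26) levels no longer differed beyond their spread. The order of 4 members in FUDR changed when the longest transcript was used as the length. The place of lin-42 was among those that changed, since it then stood above lin-14.

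**Figure D4:**
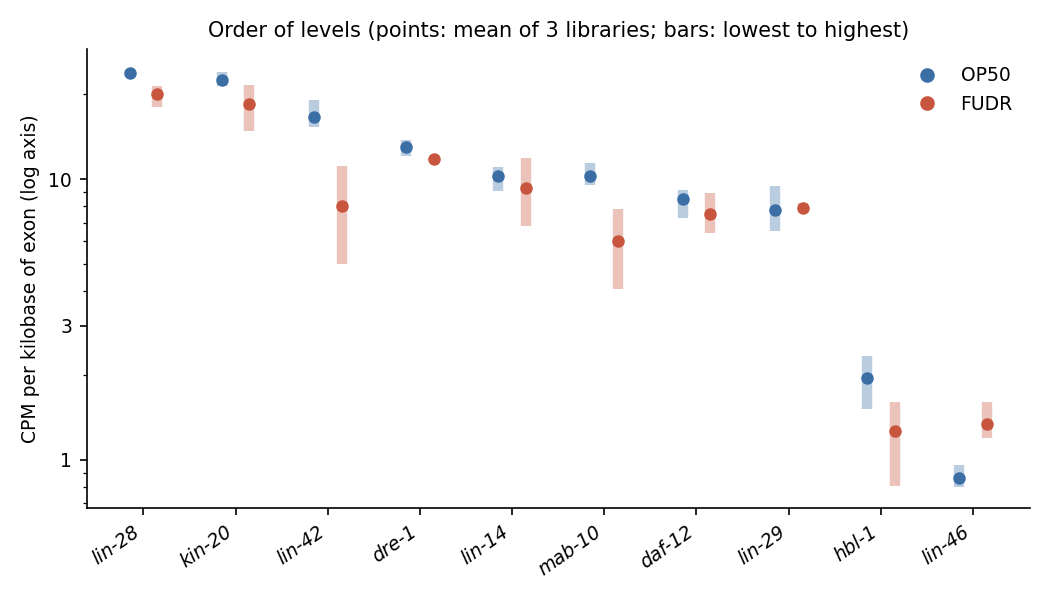
CPM per kilobase of exon (vertical log axis) of the 10 heterochronic genes, ordered by their OP50 mean, with points for the mean and bars from the lowest to the highest of 3 libraries. The lin-42 and mab-10 points drop in FUDR, and the hbl-1 and lin-46 levels meet near the bottom.

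Other heterochronic genes outside the 10 were measured too. Of 14 listed, 10 were tested, and 4 fell and 2 rose, with a median of −0.20. Of all 17022 genes tested, 3582 were lower and 3397 higher. With library size only 3 of the list fell and 3 rose, and with length-trend scaling 3 fell and 2 rose. The lin-41 gene (WBGene00003026) encodes the TRIM-NHL protein that let-7 represses and that in turn represses lin-29 and mab-10, and it also acts in oocytes. It fell by 1.48 ± 0.161 on the log2 scale (edgeR adjusted p = 0.000309), from between 316 and 365 CPM in OP50 to between 92.4 and 148 CPM in FUDR. The falls of lin-66 (−0.83) and of nhl-2 (−0.78), a TRIM-NHL cofactor of microRNA silencing, were called as well, and also with length-trend scaling. The Pumilio gene puf-9 (−0.29, adjusted p = 0.0459) was called, but not with length-trend scaling (0.06), upper quartile scaling, library size only or the 5 CPM filter, nor on leaving out any library other than FUDR replicate 1 (adjusted p between 0.0584 and 0.133). Not called were the zinc-finger gene sea-2 (−0.59, adjusted p = 0.135, but 0.0381 without FUDR replicate 1 and 0.0473 with DESeq2), the Makorin gene lep-2 (0.01) and the DM-domain genes mab-3 (−0.12) and dmd-3 (1.88, adjusted p = 0.0872, on 61 counts summed over the FUDR libraries).

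The rises were in 2 noncoding transcripts. The let-7 locus (WBGene00002285, chromosome X, 14743590 to 14745321) was at 1.18, 1.36 and 1.07 CPM in OP50 and at 2.34, 2.60 and 3.06 CPM in FUDR. All FUDR libraries were above all OP50 libraries, a 2.23-fold rise (1.15 ± 0.187, edgeR adjusted p = 0.00166). Poly(A) libraries of this kind read the primary transcript and not the mature microRNA, and the strand setting of the counting is not given, so that reads of the antisense noncoding gene C05G5.8 cannot be told apart, and the small coding gene C05G5.7 also overlaps the locus. The long noncoding RNA lep-5, which acts with LEP-2 and LIN-28 in the timing of the male tail, rose from between 140 and 147 CPM to between 192 and 266 CPM (0.63 ± 0.124, edgeR adjusted p = 0.00413). The other microRNA loci could not be tested: lin-4 and mir-84 had 0 counts in all libraries, mir-48 at most 5 and mir-241 at most 5 counts in any library.

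The counts for the pathways around the members stand against 3582 lower and 3397 higher of the 17022 genes tested. The part of the germline, where 16 of 17 markers fell, in these lists was not tested. Of 14 microRNA processing and silencing genes 11 fell and 0 rose, with a median of −0.67, and 7 fell and 1 rose with length-trend scaling (median −0.22). Of the 14, 11 have a transcript over 2000 bases, and 48.1% of the protein-coding genes of 2000 to 3000 bases and 51.9% of those of 3000 to 4000 bases were called lower. Those with the smallest p were the RISC-associated genes tsn-1 (−1.30) and vig-1 (−0.93), the poly(U) polymerase gene pup-2 (−0.90) and the Microprocessor gene pash-1 (−0.77). Of 9 tested genes of DAF-12 ligand synthesis and cofactors 4 fell, among them the Rieske oxygenase gene daf-36 (−0.84), the receptor gene nhr-8 (−0.79) and the P450 reductase gene emb-8 (−0.54). In that list the steroid dehydrogenase gene dhs-16 rose (1.26), from between 0.496 and 0.789 CPM to between 1.53 and 1.80 CPM. With length-trend scaling 3 of the 9 fell and 1 rose. The P450 gene daf-9, which makes the DAF-12 ligands, was not called (−0.31, adjusted p = 0.214).

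Among 9 molting cycle regulators nhr-23 (−0.73), myrf-1 (−0.82) and bed-3 (−0.39) fell and pan-1 (0.28) rose, while 2 fell and 3 rose with length-trend scaling. The bed-3 call was lost with length-trend scaling (−0.13), with upper quartile scaling, with library size only and with the 5 CPM filter. Leaving out OP50 replicate 2 or 3 ended it as well (adjusted p = 0.0802 and 0.0588). The pan-1 call was lost with scaling on somatic markers and without any library other than FUDR replicate 1 (adjusted p between 0.055 and 0.149). The BLMP-1 gene blmp-1, whose product DRE-1 targets, was at −0.09 (adjusted p = 0.467). Of 7 clock gene homologues 3 fell and 0 rose, namely nhr-23, the Timeless gene tim-1 (−0.55) and the casein kinase I alpha gene kin-19 (−0.46). The kin-19 call was lost with upper quartile scaling, with library size only, and on leaving out OP50 replicate 1, OP50 replicate 3 or FUDR replicate 2 (adjusted p between 0.0518 and 0.0627). Of 6 core genes of the SCF ligase that DRE-1 joins, cand-1 (−0.59) and cul-1 (−0.44) fell and ned-8 (0.29) rose, but with length-trend scaling cul-1 (−0.15) and ned-8 (0.04) were not called, while skr-2 was (−0.33, adjusted p = 0.00194, against −0.22 and 0.0576 with TMM). The skr-2 fall also passed with RLE scaling, DESeq2 and scaling on somatic markers and without FUDR replicate 3, but with library size only skr-2 was at 0.015. The ned-8 call was also lost on leaving out OP50 replicate 1, OP50 replicate 3 or FUDR replicate 2 (adjusted p between 0.0799 and 0.108).

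Downstream of lin-29, adult cuticle genes changed in both directions. Of 8 listed, col-7 (1.08), col-62 (0.93) and col-19 (0.41) rose and col-38 (−0.39) fell, around a median of −0.02. The col-7 and col-62 calls were lost without FUDR replicate 3 (adjusted p = 0.136 and 0.0775). The col-19 call was lost without OP50 replicate 1, 2 or 3 (adjusted p between 0.06 and 0.0789), and that of col-38 (adjusted p = 0.0493) on leaving out any of 4 libraries, namely OP50 replicates 1 and 2 and FUDR replicates 2 and 3 (adjusted p between 0.074 and 0.188). The col-7, col-19 and col-38 calls were also lost under other settings, the first of them without the count filter (adjusted p = 0.0923). The adult cuticle strut genes bli-1 (−0.42, adjusted p = 0.121) and bli-2 (0.07) were not called.

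**Figure D5:**
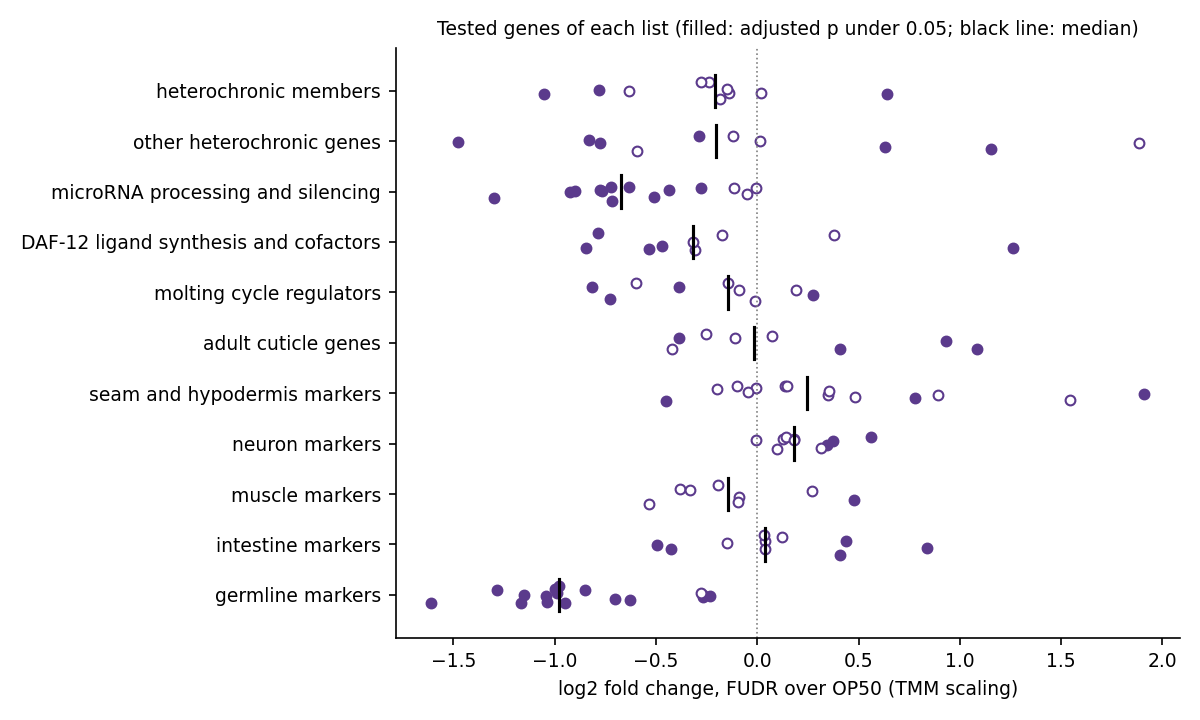
Log2 fold change, FUDR over OP50 with TMM scaling, of each tested gene in 11 lists, with filled points at an adjusted p under 0.05 and a black line at each list's median. The heterochronic members spread around −0.21, the microRNA processing genes around −0.67 and the germline markers around −0.98.

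By likeness over the 6 libraries, the genes closest to lin-42 were tra-1, ztf-7, chd-7, fzr-1 and grk-1, with a Pearson r of log2 CPM of at least 0.998. All 5 were lower in FUDR, by between −0.73 and −0.42, and were called. This follows largely from choosing them by r with lin-42 over the same 6 libraries. Of 6373 candidates (averaging 5 CPM or more and carrying a gene name, members left out), 940 had an r of at least 0.95 with lin-42, so a high r over 6 libraries in 2 groups is common. The closest to lin-46 were tpan-1, trmt-10C.1, tsp-8, arrd-7 and mrpl-22, with an r between 0.993 and 0.997, and 189 candidates reached 0.95. The 5 genes named for lin-46 had log2 fold changes between 0.31 and 0.47, a direction that the choice by r likewise largely sets. Of them arrd-7 was not called (edgeR adjusted p = 0.0503).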

How the data were processed

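The authors deposited raw read counts per gene for each library. STAR, HTSeq and build WBcel235 are named, per the submitters' processing notes. No version, annotation release or strand setting is given in the sources used here. Poly(A) RNA was selected and made into libraries with NEBNext reagents, per the labels' protocols. The HTSeq summary rows (between 4.55% and 5.33% of all counts) were left out.

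Positions and lengths come from Ensembl release 115 of WBcel235, and names from a table of gene symbols. The microRNA loci were matched to RefSeq symbols by position. No overlapping gene covers more than 2.95% of a member's exons.

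All genes were tested with edgeR 4.0.16 (R 4.3.3): filterByExpr (minimum count 10, minimum total count 15), TMM, robust quasi-likelihood F test and Benjamini-Hochberg adjustment at 0.05. The SE is the log2 fold change divided by the square root of F. Alternatives used other scalings, filters and fits, limma-voom (3.58.1), DESeq2 (1.42.0), a replicate block and leaving out each library. Scaling on somatic markers used median ratios over neuron, muscle, intestine and hypodermis lists. Length-trend scaling adds to the offset a lowess trend of each library on log2 transcript length, and was added after seeing the data. Both fits were run on simulated data, for length-trend scaling with the same trend in every FUDR library. In the data the trend differed between FUDR libraries, so the simulation cannot show how that fit performs on them.

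Replicates differed by more than sampling noise in every case (chi-square per degree of freedom at least 18.7). Members, lists and tests were chosen with earlier results of these data known. All members are named whatever their values, as are the other heterochronic genes. Of each other list up to 4 genes with the smallest p are named, and daf-9, blmp-1, bli-1 and bli-2 were added after their values were seen. For lin-42 and lin-46 the 5 most correlated genes are named. No sequences are printed.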

Additional observations from a re-analysis of the deposited data

How the results depend on the processing

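The number of genes called higher was 3397, against 5814 with library size only and 2087 with scaling on somatic markers, and the number called lower was 3582, against 1931 with library size only. The count of all calls was 6979 and ran from 5006 to 7234 on leaving out 1 library. Scaling moved the share of calls that were higher from 48.7% to 66.6% (upper quartile), 75.1% (library size only), 31.6% (somatic markers) and 58.8% (length trend), and the median log2 fold change from 0.05 to 0.20, 0.28, −0.08 and 0.12.

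Scaling on somatic markers called 7 members lower and 0 higher, against 4516 lower and 2087 higher of all 17022 genes tested. It added lin-28 (−0.37), hbl-1 (−0.78), daf-12 (−0.32), kin-20 (−0.42) and dre-1 (−0.28), and lost lin-46 (0.52). DESeq2 called 4 lower, adding lin-28 (−0.26) and hbl-1 (−0.65), and RLE scaling added lin-28 (−0.26). Over all genes, DESeq2 called 3958 lower and 3491 higher, and RLE scaling 3733 lower and 3212 higher. The replicate block added hbl-1 (−0.66, adjusted p = 0.0486), raised the members called from 3 to 4, added sea-2 (adjusted p = 0.0437), lost col-38 (0.0582), and gave 6762 calls in all. Same-numbered libraries were not shown to be paired, with correlations of deviations of 0.055, −0.017 and 0.058. Without a filter lin-42 (−1.06) was not called, and the 5 CPM filter removed lin-46. Directions turned, with no call either way, for lin-14 with upper quartile scaling (0.0025), library size only (0.072) and length trend (0.19). They also turned for lin-29 with RLE (−0.0019), DESeq2 (−0.0020) and somatic markers (−0.11), for daf-12 with library size only (0.035) and length trend (0.20), for kin-20 with length trend (0.026), and for dre-1 with upper quartile (0.0027), library size only (0.079) and length trend (0.23).

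On leaving out 1 library the log2 fold changes ran from −0.36 to 0.039 for lin-14, −0.29 to −0.17 for lin-28, −0.10 to 0.18 for lin-29, −1.36 to −0.80 for lin-42, 0.48 to 0.72 for lin-46, −0.85 to −0.40 for hbl-1, −0.34 to −0.090 for daf-12, −1.02 to −0.57 for mab-10, −0.41 to −0.14 for kin-20 and −0.21 to −0.11 for dre-1. The FUDR minus OP50 difference in the log2 ratio of lin-14 to lin-28 ran from −0.20 to 0.33, against 0.07 with all libraries, so its sign turned.

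Of the other named genes, signs turned for puf-9 with length trend (0.062), lep-2 with RLE (−0.0090), DESeq2 (−0.0090) and somatic markers (−0.12), mab-3 with upper quartile (0.031), library size only (0.11) and length trend (0.057), skr-2 with library size only (0.015), end-3 with library size only (0.054) and myo-3 with length trend (0.043). Leaving out 1 library gave −0.024 to 0.035 for lep-2, −0.32 to 0.012 for mab-3 and −0.67 to 0.35 for end-3. Of 1054 values for the genes other than members, 939 kept their direction and side of the threshold. With the longest transcript as the length, 6 of 10 members kept their place in the FUDR order of levels. The causes were not tested. Counts were few for lin-46, at 267 over the OP50 libraries, and for the let-7 locus, at 272, and the other microRNA loci could not be tested.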
